A study of Homo sapiens with 4 samples.

Results

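Insulin-like growth factor (IGF) signalling in BE(2)C cells was followed through 9 genes: the ligand gene IGF2, the receptor genes IGF1R and INSR, the docking protein genes IRS1 and IRS2, the PI3K subunit gene PIK3R1, and the binding protein genes IGFBP2, IGFBP4 and IGFBP5. The 9 genes were chosen by symbol, with earlier results of these data known. All 9 were found among the 26364 genes listed in each sample. BE(2)C is a human neuroblastoma line that carries an amplification of MYCN. Ctrl cells (labelled wild type, 2 samples) received a non-targeting siRNA, and MYCN KD cells (labelled MYCN kd, 2 samples) received an siRNA against MYCN. Both were transfected by lipofection in Optimem for 6 h and grown in serum-containing medium, and RNA was taken on the next day. The sample labels give the siRNA at 80 nM, and the study's methods state a lower final concentration. The methods list 1 siRNA of each kind, so that effects of the sequence itself and of MYCN loss cannot be told apart.

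IGF2 is a secreted growth factor that acts mainly through IGF1R, a receptor tyrosine kinase, and also binds an isoform of the insulin receptor encoded by INSR. The activated receptors phosphorylate the docking proteins IRS1 and IRS2, which recruit PI3K through the regulatory subunit encoded by PIK3R1. This leads to AKT and mTOR activity and keeps FOXO transcription factors out of the nucleus, while IGF binding proteins hold the ligands outside the cell and modulate their access to the receptor. Embryonal tumours, neuroblastoma among them, are known to make IGF2 and to respond to it. MYCN, with its partner MAX, binds the E-box CACGTG.

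The values were RPKM, reads scaled by gene length and by sequencing depth, which the authors computed after removing unwanted variation, so levels of different genes can be set side by side. The RPKM values corresponded to totals from 29055819 reads (MYCN KD replicate 1) to 34142988 reads (Ctrl replicate 1), and whether these totals count reads before or after the authors' normalization is not known. MYCN itself, the targeted gene, had 1068 and 1073 RPKM in Ctrl, against 720.2 and 718.0 RPKM in MYCN KD. The MYCN KD mean was 0.672 of the Ctrl mean (log2 fold change -0.57, SE 0.029, adjusted p = 0.00361 from limma), and the log2 fold change was -0.38 with quantile normalization. All 11 adrenergic neuroblastoma markers of a fixed list (PHOX2A, HAND2, DBH and others) were above 1 RPKM on average. In MYCN KD 6 of them were higher and 2 lower, against 25.3% and 22.8% of all tested genes. PHOX2A was 1.97 times and DBH 1.89 times its Ctrl mean. The 5 epithelial markers summed to between 13.7 and 14.6 RPKM in Ctrl and between 25.6 and 27.1 RPKM in MYCN KD, nearly all from KRT19 (means 13.9 and 25.9 RPKM, log2 fold change 0.85, adjusted p = 0.00440 from limma), while EPCAM and CDH1 did not exceed 0.421 and 0.0286 RPKM and KRT5 was listed at 0. The part of these markers in the changes of the members was not tested. The leukocyte markers summed to at most 1.89 RPKM and the endothelial markers to at most 0.644 RPKM in any sample.

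IRS1 and IRS2, the docking proteins of the pathway, moved in opposite directions, and the promoters of these 2 genes are shown for that reason. Of the 9 members, 8 had at least 1 promoter sequence in the RefSeq set used, 13 promoters in all; IGF2 had none. Each spans 250 bases before to 50 bases after an annotated start and was matched without mismatch to GRCh37. CACGTG, which reads the same on both strands, was present in 1 of the 13 promoters, that of IRS1, against 7.26% of all 35116 RefSeq promoters of this length. It lies on chromosome 2 from 227664496 to 227664501, 35 bases downstream of the annotated start, within the first exon. The forkhead sequence GTAAACA or its reverse TGTTTAC was in 0 of the 13 and in 3.42% of all promoters. The promoters below are chr2:227664487-227664786 (IRS1, minus strand) and chr13:110438881-110439180 (IRS2, minus strand) of GRCh37, 5′ to 3′, with CACGTG in capitals.
IRS1: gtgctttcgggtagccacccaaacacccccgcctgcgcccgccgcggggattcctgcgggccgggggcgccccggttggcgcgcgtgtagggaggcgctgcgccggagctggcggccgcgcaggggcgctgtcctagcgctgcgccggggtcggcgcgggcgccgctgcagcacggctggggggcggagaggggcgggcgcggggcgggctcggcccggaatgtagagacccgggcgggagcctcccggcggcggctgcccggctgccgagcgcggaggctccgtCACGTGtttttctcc
IRS2: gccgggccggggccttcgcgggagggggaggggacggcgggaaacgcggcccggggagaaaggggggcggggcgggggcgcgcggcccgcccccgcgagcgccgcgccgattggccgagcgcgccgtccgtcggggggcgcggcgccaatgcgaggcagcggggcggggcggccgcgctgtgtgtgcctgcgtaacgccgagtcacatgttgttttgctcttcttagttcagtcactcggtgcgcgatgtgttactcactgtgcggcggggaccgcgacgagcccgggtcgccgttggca
A match of letters is a description and not evidence of binding.

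Of the 9 members, 5 rose, 1 fell and 3 did not pass the test. IGF2, IGF1R, IRS2, IGFBP4 and IGFBP5 were higher in MYCN KD, and IRS1 was lower. Across all 11411 tested genes (a mean RPKM of at least 1), 48.1% passed in either direction, 25.3% higher and 22.8% lower, so that 6 called members of 9 must be read against a background of about 1 gene in 2. All 9 members passed the expression filter. The median log2 fold change of the members was 0.31, and that of all tested genes was 0.03. Among genes averaging at least 5 RPKM, where 7 members remained, it was 0.50. The groups did not overlap for 7 of the 9 members, of which 6 were higher in MYCN KD and 1 lower; of all tested genes 76.2% did not overlap, 40.4% higher and 35.8% lower. Differences were tested on log2(RPKM + 1) with limma over all tested genes, with Benjamini-Hochberg adjustment at 0.05. On this scale the change of a gene with low RPKM is understated. The smallest two-sided p that an exact permutation test of 2 samples against 2 can give is 1 in 3, so the limma calls rest on a spread estimated across genes. Deviations within Ctrl and within MYCN KD were nearly mirror images (correlation -0.9845), yet limma counted them as independent. The SE and adjusted p-values may therefore be too small and the intervals too narrow. The methods speak of biological replicates, and the labels do not say whether the 2 samples of a group came from separate cultures or days. If they did not, the p-values measure the spread between these samples, which may be technical. In bulk RNA, fewer cells of a type and less RNA per cell cannot be told apart.

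**Figure D1:**
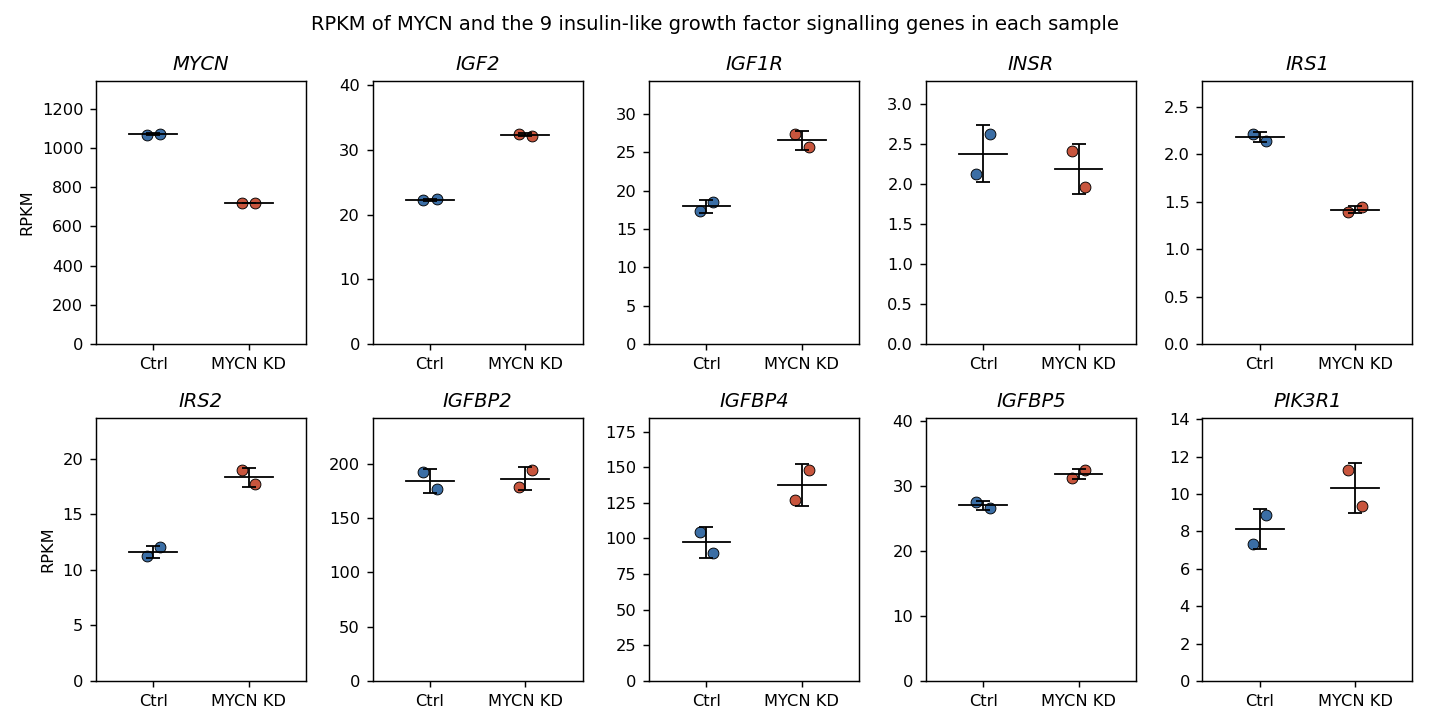
RPKM of MYCN and the 9 IGF signalling genes; points are samples, long lines are group means and error bars are the SD of the 2 samples (each vertical axis starts at 0 and has its own scale). IGF2, IGF1R, IRS2, IGFBP4, IGFBP5 and PIK3R1 lie higher in both MYCN KD samples, MYCN and IRS1 lie lower in both, and INSR and IGFBP2 overlap.

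The ligand gene IGF2 was expressed at 22.2 and 22.4 RPKM in Ctrl, against 32.5 and 32.2 RPKM in MYCN KD. Both MYCN KD samples lay above both Ctrl samples, and the replicates of each group lay close together. The mean rose 1.45 times, from 22.3 ± 0.149 to 32.4 ± 0.216 RPKM (SD, n = 2), with a log2 fold change of 0.52 (SE 0.034, adjusted p = 0.00440 from limma). The reads behind these values numbered from 4607 to 6399 per sample. IGF2 lies on chromosome 11 from 2150342 to 2179621 on the minus strand of GRCh37. The readthrough gene INS-IGF2 shares 20.4% of the exonic bases annotated for IGF2, and it was listed at 0 in all samples, as was INS. On the same strand, a protein-coding gene without a symbol shares 37.9% and a noncoding gene shares 5.22%. Neither was among the listed genes. Reads from the shared exons cannot be assigned to 1 gene with certainty, so the level of IGF2 is uncertain. IGF2-AS, on the opposite strand, shares 4.66% of the IGF2 exonic bases. IGF2-AS stood at 16.3 and 13.9 RPKM in Ctrl, against 12.9 and 15.02 RPKM in MYCN KD, with overlapping groups (log2 fold change -0.11, adjusted p = 0.488 from limma). H19, the imprinted noncoding neighbour of IGF2, did not exceed 0.361 RPKM in any sample. TH, the next gene beyond INS and the rate-limiting enzyme of catecholamine synthesis, had a log2 fold change of 0.26 and did not pass the test (adjusted p = 0.0771 from limma). It passed with scaling to the same total (0.32, adjusted p = 0.0323) and with quantile normalization (0.40, adjusted p = 0.0113), both from limma. Without Ctrl replicate 1 the TH value was 0.34, and without MYCN KD replicate 1 it was 0.33. The other ligand, IGF1, was listed at 0 in all 4 samples.

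Among the receptors, IGF1R rose and INSR did not pass the test. IGF1R lies on chromosome 15 (99191768 to 99507759). Its level was 17.3 and 18.5 RPKM in Ctrl, against 27.4 and 25.6 RPKM in MYCN KD. The groups were well apart, and the mean rose 1.48 times (log2 fold change 0.54, SE 0.060, adjusted p = 0.00896 from limma). INSR lies on chromosome 19 (7112266 to 7294425). Its level was 2.13 and 2.63 RPKM in Ctrl, against 2.42 and 1.97 RPKM in MYCN KD. These groups overlapped, and the log2 fold change was -0.08 with a 95% interval from -0.43 to 0.26 (adjusted p = 0.588 from limma). INSR reads numbered from 552 to 763 per sample, against 7235 to 9745 for IGF1R, so INSR was measured with the larger counting error. Its spread went beyond that error. The 95% Poisson intervals of the Ctrl samples did not meet (1.97 to 2.30 and 2.45 to 2.83 RPKM). Those of the MYCN KD samples did not meet either (2.23 to 2.61 and 1.81 to 2.14 RPKM). The sign for INSR turned without Ctrl replicate 2 (0.02) and without MYCN KD replicate 2 (0.02). Per length, IGF1R was 8.12 and 7.04 times as abundant as INSR in Ctrl and 11.3 and 13.02 times as abundant in MYCN KD. The ratio was higher in both MYCN KD samples, and the difference between the 2 genes' changes was not tested.

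Of the docking protein genes, IRS1 fell and IRS2 rose. IRS1 lies on chromosome 2 (227596028 to 227664536). Its level was 2.22 and 2.14 RPKM in Ctrl, against 1.39 and 1.44 RPKM in MYCN KD. IRS1 fell to 0.649 of its Ctrl mean (log2 fold change -0.40, SE 0.040, adjusted p = 0.00749 from limma). Its reads were few, 661 and 598 in Ctrl, against 352 and 389 in MYCN KD, yet the exact 95% Poisson intervals of the groups did not meet. The lowest bound in Ctrl was 1.97 RPKM, and the highest bound in MYCN KD was 1.59 RPKM. These intervals cover counting error only, and they take the recovered whole numbers as sequenced reads. Where the authors' normalization changed the counts, the intervals are approximate. IRS2 lies on chromosome 13 (110405042 to 110438930). Its level was 11.2 and 12.02 RPKM in Ctrl, against 18.9 and 17.7 RPKM in MYCN KD. IRS2 rose 1.58 times (log2 fold change 0.62, SE 0.061, adjusted p = 0.00731 from limma). The 95% intervals of the log2 fold changes were -0.51 to -0.28 for IRS1 and 0.44 to 0.79 for IRS2. The IRS2 level was 5.06 and 5.61 times that of IRS1 in Ctrl and 13.7 and 12.3 times in MYCN KD. IRS4 was listed at 0 in all samples. PIK3R1, which encodes the p85 alpha regulatory subunit and shorter forms from internal promoters, had 7.36 and 8.89 RPKM in Ctrl, against 11.3 and 9.39 RPKM in MYCN KD. Both MYCN KD values lay above both Ctrl values, but the spread within each group was wide. The log2 fold change of PIK3R1 was 0.31 with a 95% interval from -0.08 to 0.71, and it did not pass the test (adjusted p = 0.139 from limma). Without Ctrl replicate 2 it was 0.43, and without MYCN KD replicate 2 it was also 0.43. The lowest value with 1 sample left out was 0.19.

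**Figure D2:**
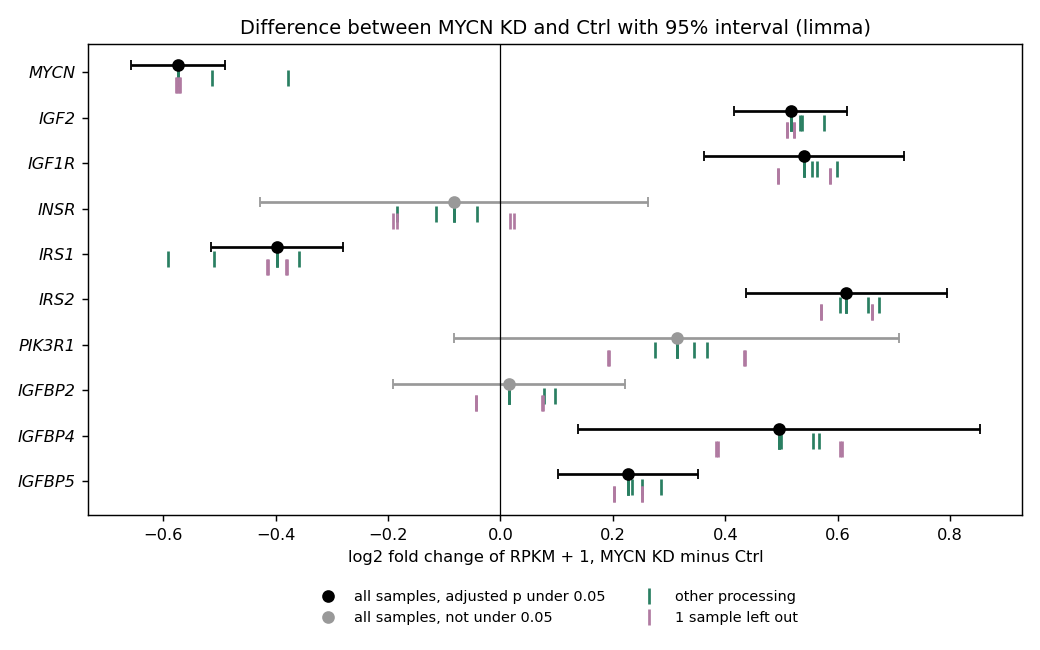
Log2 fold change of RPKM + 1 in MYCN KD against Ctrl for MYCN and the 9 members; circles with bars are the limma estimate and its 95% interval, green ticks are other processing settings and purple ticks leave out 1 sample. IRS1 stays below 0 and IGF2, IGF1R and IRS2 stay above 0 under every setting drawn, whereas INSR and IGFBP2 cross 0.

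**Figure D3:**
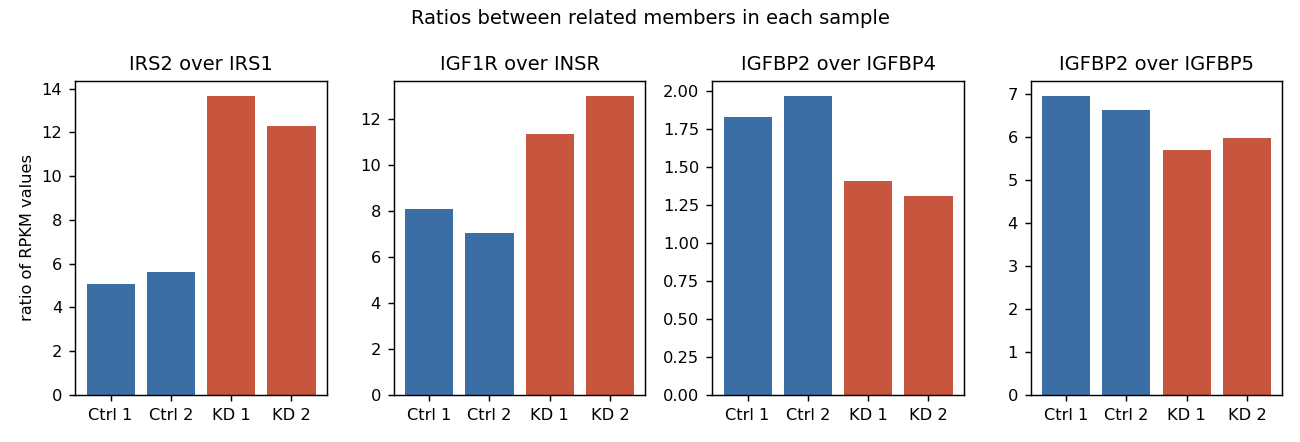
Ratio of RPKM values between related members in each sample, with Ctrl in blue and MYCN KD in red (KD 1 and KD 2); bars start at 0. IRS2 over IRS1 goes from 5.06 and 5.61 in Ctrl to 13.7 and 12.3 in MYCN KD, and IGFBP2 over IGFBP4 from 1.83 and 1.97 to 1.41 and 1.31.

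The binding protein genes were the most abundant of the members in Ctrl, and they did not move alike. IGFBP2 had 192.0 and 176.6 RPKM in Ctrl, against 178.7 and 194.0 RPKM in MYCN KD. The groups overlapped, and only 3.12% of tested genes had a higher mean. Its log2 fold change was 0.02 with a 95% interval from -0.19 to 0.22 (adjusted p = 0.866 from limma), and the sign turned without Ctrl replicate 2 (-0.04) and without MYCN KD replicate 2 (-0.04). IGFBP4 had 104.8 and 89.6 RPKM in Ctrl, against 127.0 and 147.8 RPKM in MYCN KD. IGFBP4 rose 1.41 times (log2 fold change 0.50, SE 0.12, adjusted p = 0.0435 from limma), with a wide spread within both groups. This call was close to the threshold and was lost when all 19908 genes above 0 were tested (adjusted p = 0.0691 from limma). IGFBP5 had 27.6 and 26.6 RPKM in Ctrl, against 31.3 and 32.5 RPKM in MYCN KD. IGFBP5 rose 1.18 times (log2 fold change 0.23, SE 0.042, adjusted p = 0.0242 from limma), the smallest change among the called members. The call was lost with a replicate block (adjusted p = 0.244 from limma). It was also lost without Ctrl replicate 1 (0.25), Ctrl replicate 2 (0.20), MYCN KD replicate 1 (0.25) or MYCN KD replicate 2 (0.20). IGFBP2 and IGFBP5 are neighbours on chromosome 2, convergent, with 7668 bases between their annotated ends. The IGFBP2 level was 6.96 and 6.63 times that of IGFBP5 in Ctrl and 5.70 and 5.98 times in MYCN KD. Summed over the 3 genes, the binding proteins had 308.6 ± 22.3 RPKM in Ctrl, against 355.7 ± 26.2 RPKM in MYCN KD (SD, n = 2). Fibroblasts and other mesenchymal cells are known to make IGF2, IGFBP4 and IGFBP5. Of 12 fibroblast and mesenchymal markers, 7 were tested, of which 6 rose and 0 fell, against 25.3% and 22.8% of all tested genes. LUM, the remaining tested marker, did not pass (means 7.50 and 7.29 RPKM, log2 fold change -0.04). The 12 together summed to between 493.3 and 494.7 RPKM in Ctrl and between 657.4 and 657.6 RPKM in MYCN KD. VIM, THY1 and S100A4, which neuroblastoma cells can also express, made up most of this sum, with Ctrl means of 156.7, 211.9 and 100.9 RPKM and log2 fold changes of 0.56, 0.24 and 0.52. COL1A1 was 2.41 times its Ctrl mean (0.733 to 1.76 RPKM, tested only because it was high in MYCN KD), and DCN rose from a mean of 5.05 to 8.55 RPKM. PRRX1 was listed at 0, and COL1A2 and COL3A1 did not exceed 0.0254 and 0.539 RPKM. Their part in the changes of the binding proteins was not tested.

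Per length, the mean Ctrl levels of the members ran in the order IGFBP2, IGFBP4, IGFBP5, IGF2, IGF1R, IRS2, PIK3R1, INSR and IRS1. INSR and IRS1 were neighbours that could not be told apart in Ctrl, where their samples overlapped (2.13 and 2.63 against 2.22 and 2.14 RPKM). In MYCN KD, IGF2 and IGFBP5 also overlapped, at 32.5 and 32.2 against 31.3 and 32.5 RPKM, whereas in Ctrl IGFBP5 was above IGF2 in both samples. For each member, the tested genes with the nearest pattern were found by the Euclidean distance between log2(RPKM + 1) values centred on each gene's mean over the 4 samples. The nearest to IGF2 were TRO (0.011) and ZNF821 (0.016), to IGF1R were MCC (0.0094) and CPNE4 (0.012), and to IRS2 were LINC01461 (0.0061) and KCTD10 (0.0062). The nearest to IRS1 were THOC7 (0.0027) and MCM3 (0.0089), and to IGFBP4 were CRABP1 (0.0076) and LIN7B (0.012). The nearest to IGFBP5 were C16orf86 (0.0060) and LOC153684 (0.0076), to PIK3R1 were HLTF (0.0052) and POT1 (0.0065), to INSR were SREK1 (0.0079) and RNF168 (0.010), and to IGFBP2 were OGDH (0.0041) and SLC35A4 (0.0041). With 4 samples such distances describe size and direction only.

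The rest of the pathway was read from fixed lists, also chosen with earlier results of these data known. Their counts stand beside 25.3% higher and 22.8% lower among all tested genes. Of 19 further ligands, receptors and docking proteins, 12 were tested, of which 6 rose and 2 fell (median log2 fold change 0.23). IGF2R, which carries IGF2 to the lysosome and has no kinase, rose from 22.4 and 22.5 RPKM to 38.2 and 37.9 RPKM (log2 fold change 0.74, adjusted p = 0.00359 from limma). SHC1, an adaptor that links the receptors to RAS, rose from 94.5 and 96.2 RPKM to 183.2 and 180.0 RPKM (0.92, adjusted p = 0.00359 from limma). SOS2, an exchange factor for RAS, rose by a log2 fold change of 0.94, and INSRR, the insulin receptor-related gene, rose by 1.09 from means of 0.511 to 2.22 RPKM. INSRR reached the filter only through the MYCN KD samples, where it was high; its call was kept with no filter (adjusted p = 0.00807 from limma), and the value was 1.93 with a pseudocount of 0.1.

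Of 12 further binding proteins and their proteases, 6 were tested, of which 4 rose and 1 fell (median 0.37). This median moved with the settings, to 0.08 when genes with low values were kept, 0.57 with a pseudocount of 0.1 and 0.67 for genes averaging at least 5 RPKM. IGFBP3 rose by a log2 fold change of 0.63 and IGFBP6 by 0.41, both from means below 2 RPKM in Ctrl. IGFBP6 (means 0.750 and 1.33 RPKM) reached the filter only through MYCN KD; its call was kept with no filter (adjusted p = 0.0210 from limma), and with a pseudocount of 0.1 the value was 0.75 for IGFBP6 and 0.95 for IGFBP3. ADAM12, a metalloprotease that cleaves IGF binding proteins, rose from 7.52 and 7.61 RPKM to 16.2 and 16.0 RPKM (0.996, adjusted p = 0.00359 from limma). STC2, which inhibits the binding protein protease PAPPA, fell from 5.49 and 4.49 RPKM to 1.35 and 1.65 RPKM (-1.26, adjusted p = 0.00678 from limma). PAPPA itself did not exceed 0.169 RPKM.

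Of 22 genes of the PI3K and AKT list, 17 were tested, of which 5 rose, 1 fell and 11 did not pass (median 0.16, and 0.04 when genes with low values were kept). The phosphatase genes INPPL1 (log2 fold change 0.52) and PHLPP2 (0.38), which oppose PI3K and AKT, rose. PIK3R3, a further regulatory subunit of PI3K, fell by 0.48 on the log2 scale, with 6.12 and 7.02 RPKM in Ctrl, against 4.74 and 4.15 RPKM in MYCN KD. AKT1 and AKT2 did not pass, with log2 fold changes of 0.08 and -0.04, and the sign of AKT2 turned with each sample scaled to the same total (0.02). The PIK3R3 call was lost with scaling to the same total (adjusted p = 0.0508 from limma). The PHLPP2 call was lost with a replicate block (adjusted p = 0.0647 from limma), and without Ctrl replicate 1 (0.33) or MYCN KD replicate 1 (0.33). This list had 3 called genes without Ctrl replicate 1 and 3 without MYCN KD replicate 1, against 6 with all samples.

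In the TSC and mTOR list all 18 genes were tested, of which 2 rose and 5 fell (median -0.09). EIF4EBP1, a repressor of translation that mTOR inactivates, fell from 263.1 and 230.3 RPKM to 113.9 and 129.8 RPKM (-1.01, adjusted p = 0.00800 from limma). RPS6, a ribosomal protein with many processed pseudogenes, fell by 0.55 on the log2 scale. DEPTOR, an mTOR inhibitor, and ULK1, a kinase that starts autophagy, rose by 0.51 and 0.58. The DEPTOR call was lost when genes with low values were kept (adjusted p = 0.0551 from limma). MTOR itself did not pass (-0.04, adjusted p = 0.550 from limma), and its sign turned with scaling to the same total (0.01). Of 20 FOXO factors and genes known as FOXO targets, 16 were tested, of which 6 rose and 4 fell (median 0.17). SESN3 (0.52), CCNG2 (0.68) and PINK1 (0.72) rose and CITED2 (-0.83) fell, so this list did not move one way, and the SESN3 call was lost when genes with low values were kept (adjusted p = 0.0737 from limma) and with scaling to the same total (adjusted p = 0.0502 from limma).

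**Figure D4:**
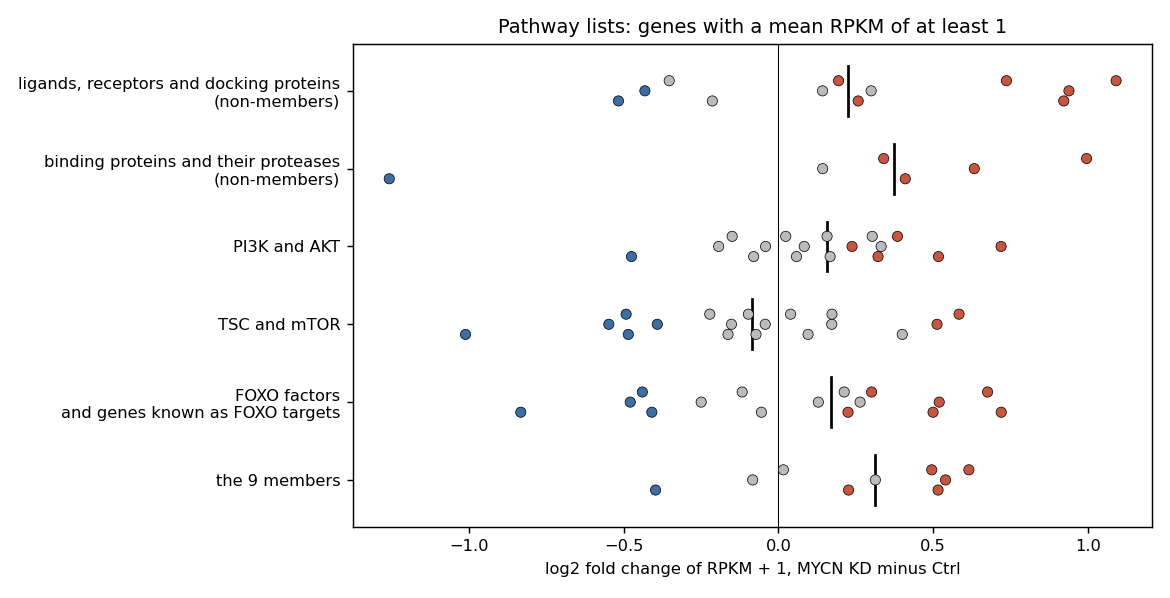
Log2 fold change of RPKM + 1 for the tested genes of 5 pathway lists and for the 9 members; each point is a gene, red for higher and blue for lower at an adjusted p under 0.05, grey otherwise, and the black line is the median of the list. The medians run from -0.09 for TSC and mTOR to 0.37 for the binding proteins and their proteases, beside 0.31 for the members; with genes of low values kept, the median of the binding proteins list is 0.08.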

How the data were processed

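RNA-seq RPKM values of 2 Ctrl and 2 MYCN KD samples were used. Per the labels and the study's methods, alignment to hg19 was done with HISAT2 2.1.0, featureCounts gave counts per RefSeq gene, DESeq2 modelled these, and RUVSeq took out unwanted variation. The RPKM deposited by the authors come from the counts after that step, 1 file per sample. This removal lowers the spread between replicates by an amount that is not known here. Totals of reads were recovered from small RNA genes of known length. Of these genes, 79.38% to 81.36% per sample came out whole within 0.05 of a read. Member reads then followed as whole numbers at the smallest gene length that gave them, or at the multiple of it nearest the canonical transcript length. For IGFBP4 the smallest length, 1118 bases, was multiplied by 2 to 2236, so its read numbers rest on the annotation.

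The 11411 genes whose mean RPKM reached 1 entered a linear model of log2(RPKM + 1), fitted in R 4.3.3 by limma 3.58.1 with a mean-variance trend in eBayes, and p-values were adjusted by Benjamini-Hochberg over all of them. The fit was run on simulated counts with independent samples. Deviations in the real data were correlated between samples, so that run cannot vouch for the calls here. GENCODE 44 lifted to GRCh37 gave positions, and RefSeq promoters were matched to GRCh37. Python 3.11.15 was used. Lists were matched by symbol, with RACK1 listed under an older symbol. Named genes were the members, the up to 4 largest called and non-overlapping changes of each list, genes around IGF2, and the 2 nearest patterns of each member. Some genes of the lists are counted but not reported here by name. Members and lists were chosen with earlier results of these data known. Alternatives were the pseudocount, the filter, 2 scalings, no trend, a replicate block and each sample left out.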

Additional observations from a re-analysis of the deposited data

How the results depend on the processing

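The calls for MYCN, IGF2, IGF1R, IRS1 and IRS2 were kept in each alternative, the crossed block aside, in which the gene was tested, with log2 fold changes from 0.51 to 0.57 for IGF2, 0.49 to 0.60 for IGF1R, -0.59 to -0.36 for IRS1 and 0.57 to 0.67 for IRS2. With a mean RPKM of at least 5, IRS1 and INSR were below the filter, so 0 members were lower, 1868 genes were higher (2890 in the main analysis), and the called genes numbered 2 (from 5) for binding proteins and 4 (from 10) for FOXO genes, since fewer genes were tested. Without a filter IGFBP4 was no longer past the threshold (0.50, adjusted p = 0.0691 from limma). Quantile normalization and scaling to the same total each gave 1 called gene around IGF2 (TH), against 0, where an unadjusted p was under 0.05 for 1 gene.

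The members' median was 0.50 under the stricter filter, and those of the binding proteins and PI3K lists fell to 0.08 and 0.04 without a filter. The median of all tested genes was 0.0260, and it was -0.0115 under the stricter filter and -4.265e-05 with quantile normalization. AKT2 turned sign at 0.0178 with the same total and 0.0161 with quantile normalization, and MTOR at 0.0137 with the same total; neither passed the test.

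Fits with 1 sample left out have 1 residual degree of freedom, and the lone sample is assumed to vary like the other group. For MYCN, IGF2, IGF1R, IRS2 and IGFBP4 their adjusted p-values were all smaller than with all samples. A call gained or lost in these fits therefore cannot be laid to the sample alone. Over these, INSR ranged from -0.190 to 0.0233, IGFBP2 from -0.0444 to 0.0761, IGFBP5 from 0.20 to 0.25 (never past the threshold), PIK3R1 from 0.19 to 0.43 and AKT2 from -0.0929 to 0.00928. Called genes ranged from 3 to 7 for PI3K and AKT and from 0 to 1 around IGF2.

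Same-numbered samples deviated from their group means in opposite directions (correlation -0.9845 over 11411 genes), so the replicate number was not taken as a pairing. The within-group differences of Ctrl and MYCN KD thus carried nearly the same information, while limma counted them as independent. The SE and adjusted p-values may therefore be too small, and the share of genes called too large. With the replicate block, IGFBP5 was not past the threshold (0.23, adjusted p = 0.244 from limma), PHLPP2 was not either (adjusted p = 0.0647 from limma), 3 genes were called in the PI3K and AKT list, and 2077 genes were higher and 1851 lower; no other member changed its call. A crossed replicate block, chosen after seeing the data, called 5910 genes higher and 5262 lower, with 7 members higher and 2 lower. For each change above not due to the filter, the cause was not tested. INSR and IRS1 had the fewest reads of the members, at most 763 a sample, and the spread of INSR within each group went beyond counting error.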
